A study of Mus musculus with 6 samples.

Results

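Collagen chain genes were examined in RNA sequencing of the mouse aortic valve. They were chosen by name alone, as every listed gene whose symbol has the form Col, a number, a and a number, which gave 43 of 23107 genes. The 6 libraries came from aortic valve tissue of outbred mice aged 4 months, 3 of control mice and 3 of caAcvr1:Nfatc1Cre mutants. The mutants carried a transgene for constitutively active Acvr1, a type I receptor of BMP signaling, which Cre switches on, and a Cre inserted at the Nfatc1 locus. The labels call the controls wild type, while the methods of the study allow controls with the caAcvr1 transgene alone, with Nfatc1Cre alone or with neither, and which of these was sequenced was not given. Heart muscle and smooth muscle lie outside the domain of Nfatc1Cre, which takes in endocardial cells and their mesenchymal descendants, interstitial cells of the leaflet and the tissue where leaflet meets wall. The receptor was therefore not switched on in every cell that the libraries hold. The comparison asks how the collagen transcripts of the valve differ when the receptor is continuously active. Whether each library came from 1 mouse, and the sex of the mice, were not given in the sources used here, so p-values measure the spread between these libraries only.

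Collagens are proteins of 3 chains wound into a triple helix, and each gene encodes 1 kind of chain. Fibrillar collagens assemble into the load-bearing fibrils of the valve's fibrosa layer, and FACIT collagens sit on the surface of fibrils. Basement membrane (type IV) collagens form the sheet under the endothelium and around smooth muscle, and multiplexins are heparan or chondroitin sulfate proteoglycans found in or near that sheet. Type VI forms beaded filaments around cells, type VIII forms hexagonal networks in vessel walls, type VII forms anchoring fibrils, and transmembrane collagens stay in the cell membrane until their outer part is shed. By class the 43 genes were 11 fibrillar, 6 basement membrane, 2 multiplexin, 6 beaded filament, 9 FACIT, 3 network, 1 anchoring fibril and 4 transmembrane, with Col28a1 in no class.

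Several collagen genes lie beside a partner chain. Of 8 pairs of neighbours within 200 kb, 3 were type IV pairs that start head to head, Col4a1 and Col4a2 on chromosome 8, Col4a4 and Col4a3 on chromosome 1 (71 bases apart) and Col4a6 and Col4a5 on chromosome X (1308 bases apart). The annotated starts of Col4a1, on the minus strand, and Col4a2, on the plus strand, overlap by 22 bases. This shared stretch is shown because both genes of the most tightly linked pair begin in it. It lies at chr8:11312805-11312826 in GRCm38 and is given on the plus strand.
Col4a1 and Col4a2 shared start: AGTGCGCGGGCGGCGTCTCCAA

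Promoter sequence was taken from RefSeq (GRCm38.p6), which held windows for 35 of the 43 genes, 38 windows in all. Below are the bases before the start, outside annotated exons, of the 2 genes of highest level in the fibrillar class, of the highest multiplexin and of the highest network gene, each 5′ to 3′ on the gene's own strand. Capitals mark the letters of the TATA box (TATAAA), of the CCAAT box and of the GC box (GGGCGG), each searched on both strands, so that reverse complements are in capitals too. The Col3a1 window is chr1:45311288-45311537 (plus strand, directly upstream of the gene). The Col1a2 window is chr6:4505370-4505492 (plus strand), inside the annotated gene but in no exon. The Col18a1 window is chr10:77166549-77166780 (minus strand, directly upstream of the gene), and the Col8a1 window is chr16:57754738-57754987 (minus strand, directly upstream).
Col3a1: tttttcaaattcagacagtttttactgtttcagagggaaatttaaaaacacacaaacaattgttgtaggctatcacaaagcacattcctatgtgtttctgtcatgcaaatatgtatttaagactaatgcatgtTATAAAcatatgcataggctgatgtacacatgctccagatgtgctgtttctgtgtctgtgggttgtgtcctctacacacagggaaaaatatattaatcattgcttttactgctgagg
Col1a2: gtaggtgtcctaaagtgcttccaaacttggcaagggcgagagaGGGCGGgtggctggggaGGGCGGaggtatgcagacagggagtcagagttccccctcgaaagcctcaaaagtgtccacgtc
Col18a1: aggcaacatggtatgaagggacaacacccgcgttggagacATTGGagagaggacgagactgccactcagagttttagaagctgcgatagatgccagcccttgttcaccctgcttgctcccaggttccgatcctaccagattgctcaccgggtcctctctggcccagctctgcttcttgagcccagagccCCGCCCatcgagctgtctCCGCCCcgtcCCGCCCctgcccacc
Col8a1: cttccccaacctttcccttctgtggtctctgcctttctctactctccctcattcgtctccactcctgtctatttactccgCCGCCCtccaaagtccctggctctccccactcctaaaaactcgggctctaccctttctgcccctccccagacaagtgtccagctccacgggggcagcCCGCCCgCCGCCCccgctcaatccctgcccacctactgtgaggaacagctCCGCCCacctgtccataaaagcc

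The Col3a1 window was 35.2% G and C with 1 TATAAA, while the Col18a1 and Col8a1 windows were 60.8% each, with 3 and 4 GGGCGG. Over whole windows of equal length, GGGCGG was in 57.9% of the collagen windows and in 32.7% of 32851 windows of all genes. TATAAA was in 13.2% against 12.4%, CCAAT in 34.2% against 33.9% and GGCGCC in 10.5% against 9.59%. The median share of G and C was 59.0% in collagen windows and 52.4% in all windows. These matches describe the letters only.

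The libraries held 32218343 to 55728854 fragments assigned to genes. Levels are given as CPM, fragments of a gene scaled to library size with TMM, and, wherever genes are compared with each other, as CPM per kb of the longest protein-coding transcript. Markers of valve interstitial cells were present in every library at a summed level of 9170 to 13103 CPM, with none of the 12 at 0, and cardiac muscle markers reached 13067 to 43769 CPM, so the tissue held myocardium as well as valve. Acvr1 itself had 49.1, 60.5 and 67.2 CPM in the controls and 56.5, 57.8 and 49.7 CPM in the mutants, which does not separate the transgene from the endogenous gene. In whole tissue, fewer cells of a type and less RNA per cell cannot be told apart. Control replicate 2 had the lowest sample quality weight (0.453) and mutant replicate 1 the next lowest (0.740).

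Collagen transcripts were a small and very uneven share of the valve's RNA. All 43 genes together took 0.792%, 1.246% and 0.976% of the fragments in the controls and 0.673%, 0.887% and 0.898% in the mutants. Per kb, Col3a1 alone gave 33.2% of the collagen total, Col3a1, Col1a2 and Col1a1 together 63.4%, and the 10 highest genes 91.4%. At the other end, 5 genes lay under 0.1 CPM per kb, 9 between 0.1 and 1, 13 between 1 and 10, 12 between 10 and 100, and 4 above 100. By class, fibrillar chains gave 66.3% of the collagen level per kb in the controls and 68.9% in the mutants. Basement membrane chains gave 10.8% and 9.76%, multiplexins 9.12% and 6.29%, beaded filament chains 8.91% and 10.05%, FACIT chains 2.66% and 2.99%, network chains 1.30% and 1.27% and transmembrane chains 0.819% and 0.657%.

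**Figure D1:**
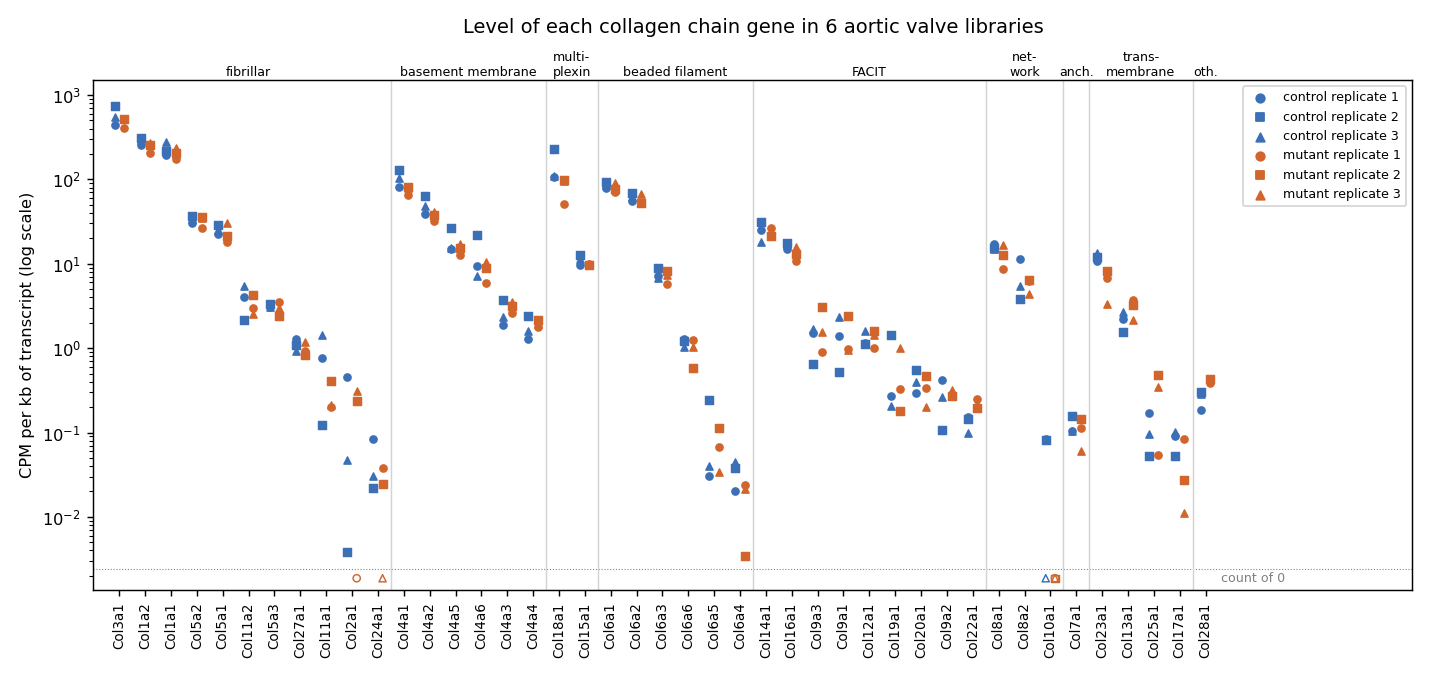
Level of each of the 43 collagen chain genes in each library, in CPM per kb of transcript on a log axis, grouped by class and ordered by level within a class. Blue marks are the 3 controls and orange marks the 3 mutants, the shape is the replicate number, and open marks below the dotted line are counts of 0. Col3a1 is highest in every library, and the levels span from over 100 to under 0.1 CPM per kb.

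The fibrillar class was carried by the type III and type I chains. Col3a1, the type III chain of distensible tissues, had 446, 747 and 551 CPM per kb in the controls and 410, 522 and 519 in the mutants. Col1a2, which pairs with Col1a1 in type I fibrils, had 255, 313 and 295 CPM per kb in the controls and 203, 254 and 272 in the mutants. Col1a1 had 197, 219 and 276 CPM per kb in the controls and 176, 208 and 235 in the mutants. For each of the 3 genes mutant replicate 1 was the lowest library, and the groups overlapped. The fitted log2 differences, mutant minus control, were -0.27 for Col3a1 (SE 0.28), -0.24 for Col1a2 (SE 0.20) and -0.16 for Col1a1 (SE 0.21). Without control replicate 2 the Col3a1 value was -0.04. The type V chains, which seed type I fibrils, came next at 33.0 CPM per kb for Col5a2 and 24.3 for Col5a1 (means of 6 libraries), and their log2 differences were -0.07 (SE 0.15) and -0.12 (SE 0.21).

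Chains best known from cartilage spanned the lower part of the range, from Col11a2, named after its values were seen, at 3.57 CPM per kb (rank 20 of 43) down to Col2a1 at 0.176 and Col10a1 at 0.0276 CPM per kb (means of 6 libraries). Col2a1, the main chain of cartilage fibrils, had 126, 1 and 11 fragments in the controls and 0, 48 and 50 in the mutants. The high control value rests on 1 library, each group held a library with at most 1 fragment, and the fitted log2 difference of 0.07 had an SE of 1.63. Col10a1, the chain of hypertrophic cartilage, had 14, 13 and 0 fragments in the controls and 0 in each mutant, too few to be tested, and a count of 0 allows up to 0.0931 CPM in the shallowest library. Col11a1 and Col9a1 are named after their values were seen. Col11a1 had 5.93, 0.929 and 10.9 CPM in the controls and 1.54, 3.09 and 1.63 CPM in the mutants (log2 difference -1.50, SE 0.79), and Col9a1 had 5.39, 1.98 and 8.87 CPM against 3.74, 9.28 and 3.66 CPM (0.04, SE 0.59). Control replicate 2 was the lowest control for Col2a1, Col11a1 and Col9a1. The Col11a1 difference depended on single libraries, with -2.005 without control replicate 2 (unadjusted p = 0.00294, adjusted p = 0.9998 in edgeR) and -0.71 without control replicate 3 (unadjusted p = 0.392 in edgeR). Summed markers of chondrocytes ranged from 970 to 1471 CPM in the controls and from 951 to 1129 CPM in the mutants, and their part in these values was not tested.

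Among basement membrane chains, Col4a1 and Col4a2, which combine into the ubiquitous type IV network, were the most abundant. Col4a1 had 536, 846 and 692 CPM in the controls and 437, 531 and 528 CPM in the mutants. Every mutant lay below every control, although the gap between the highest mutant and the lowest control was narrow. The log2 difference was -0.47 (SE 0.20, unadjusted p = 0.0540 in edgeR), and -0.30 without control replicate 2. Leaving out control replicate 1 gave -0.63 (unadjusted p = 0.0171, adjusted p = 0.947 in edgeR). Col4a2 had 251, 412 and 309 CPM in the controls and 205, 246 and 265 CPM in the mutants (log2 difference -0.44, SE 0.21), and here mutant replicate 3 lay above control replicate 1. Its difference was -0.23 without control replicate 2. It was -0.13 without control replicate 2 and mutant replicate 1, a pair picked once the data had been seen. Col4a5, a chain of the smooth muscle and kidney networks, had 98.4, 172 and 102 CPM in the controls and 83.5, 101 and 111 CPM in the mutants (-0.34, SE 0.24). Its partner Col4a6, which is named after its values were seen, stood at 146 CPM in control replicate 2 and between 39.2 and 69.7 CPM in the other 5 libraries, and its log2 difference moved from -0.60 to 0.04 when that library was left out. Col4a3 and Col4a4, which join Col4a5 in the kidney network, were at 2.86 and 1.85 CPM per kb over 6 libraries, with log2 differences of 0.23 (SE 0.26) and 0.14 (SE 0.24). Without control replicate 2 these were 0.55 and 0.44, with unadjusted p-values of 0.0234 and 0.0355 in edgeR and an adjusted p of 0.9998 for both.

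The multiplexin class was almost all Col18a1, whose product carries endostatin at its end and which gave 91.6% of the class level per kb. Col18a1 (chromosome 10, minus strand) had 603, 1298 and 605 CPM in the controls and 283, 547 and 529 CPM in the mutants. All 3 mutants were below all 3 controls, but control replicate 2 stood far above the other two controls and mutant replicate 1 far below the other mutants. The log2 difference was -0.88 (SE 0.39, unadjusted p = 0.0586 in edgeR). It was -0.41 without control replicate 2. Leaving out control replicate 1 or control replicate 3 gave -1.07 each (unadjusted p = 0.0417 and 0.0479, adjusted p = 0.947 and 0.996 in edgeR). Without control replicate 2 and mutant replicate 1 it was -0.17 (unadjusted p = 0.239 in edgeR). That pair was picked once the data had been seen, so the drop follows from the choice. Col15a1, the other multiplexin, had 50.1, 66.0 and 59.3 CPM in the controls and 51.7, 50.03 and 50.7 CPM in the mutants (-0.20, SE 0.12).

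The main type VI chains differed between the groups by less than their SE. Col6a1 had 79.1, 93.8 and 84.6 CPM per kb in the controls and 70.9, 76.3 and 90.3 in the mutants (log2 difference -0.12, SE 0.14). Col6a2 had 55.96, 69.6 and 61.0 CPM per kb in the controls and 52.3, 53.0 and 67.9 in the mutants (-0.11, SE 0.15). Col6a3, the longest of the main chains, had 7.18, 8.87 and 6.81 CPM per kb in the controls and 5.81, 8.26 and 7.41 in the mutants (-0.09, SE 0.16). The alternative type VI chains Col6a4, Col6a5 and Col6a6, which lie in a row on chromosome 9, were at 0.0250, 0.0875 and 1.06 CPM per kb. Col6a4 had 1 to 15 fragments a library and was not tested.

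Of the FACIT chains, Col14a1 was the highest, with 161, 199 and 118 CPM in the controls and 171, 136 and 159 CPM in the mutants (log2 difference -0.04, SE 0.20). Col16a1 had 77.2, 92.8 and 89.8 CPM in the controls and 56.2, 67.1 and 83.1 CPM in the mutants (-0.33, SE 0.16), with mutant replicate 3 inside the control range. The next per kb was Col9a3, a cartilage chain, with 1.52, 0.643 and 1.68 CPM per kb in the controls and 0.894, 3.03 and 1.56 in the mutants (0.51, SE 0.53). Col22a1, known from tissue junctions, was the only FACIT gene with all mutants above all controls. It had 72, 65 and 40 fragments in the controls and 114, 68 and 62 in the mutants, or 1.34, 1.29 and 0.867 CPM against 2.201, 1.72 and 1.94 CPM. Its log2 difference was 0.74 (SE 0.33, unadjusted p = 0.0583 in edgeR), and it ran from 0.57 to 0.86 when libraries were left out. Col28a1, a chain of no class, showed the same arrangement, with 42, 65 and 56 fragments in the controls and 84, 72 and 58 in the mutants, or 0.784, 1.29 and 1.21 CPM against 1.62, 1.82 and 1.81 CPM (0.68, SE 0.34, unadjusted p = 0.0863 in edgeR). Both genes stand on fewer than 120 fragments a library.

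The network chains of type VIII, made by vascular and endothelial cells, were Col8a1, with 87.7, 79.4 and 75.7 CPM in the controls and 44.7, 65.0 and 84.2 CPM in the mutants (log2 difference -0.32, SE 0.22), and Col8a2, with 49.9, 16.4 and 23.7 CPM in the controls and 27.0, 27.8 and 19.2 CPM in the mutants (-0.28, SE 0.40). In both the groups overlapped. Leaving out mutant replicate 1 gave -0.12 for Col8a1, and leaving out mutant replicate 3 gave -0.56 (unadjusted p = 0.0241 in edgeR). Col7a1, the anchoring fibril chain of skin, had 0.951, 1.46 and 0.954 CPM in the controls and 1.04, 1.34 and 0.563 CPM in the mutants (-0.19, SE 0.44).

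Col23a1, a transmembrane collagen shed from the cell surface, was the collagen with the smallest p. It lies on chromosome 11 (51289920 to 51583918, plus strand). It had 61.1, 67.3 and 76.5 CPM in the controls and 38.5, 46.7 and 18.7 CPM in the mutants. The highest mutant was well below the lowest control, and mutant replicate 3 was far below the other mutants. The mean was 68.3 ± 7.77 CPM in the controls and 34.6 ± 14.4 CPM in the mutants (SD, n = 3 each), a log2 difference of -0.98 (SE 0.31). Its unadjusted p in edgeR was 0.0161 and its adjusted p over all genes was 0.999. The value was -0.89 without control replicate 3, where the unadjusted p in edgeR was 0.0503. It was -0.68 without mutant replicate 3 and -0.99 without control replicate 2. It was -1.07 without control replicate 2 and mutant replicate 1, a pair picked once the data had been seen. The other transmembrane chains were lower in level. Col13a1, found at cell-matrix and nerve-muscle contacts, had 7.01, 4.92 and 8.52 CPM in the controls and 11.6, 10.2 and 6.88 CPM in the mutants (0.49, SE 0.28). Col25a1 had 1.14, 0.356 and 0.650 CPM against 0.367, 3.24 and 2.31 CPM (1.45, SE 0.80). Col17a1, of epithelial hemidesmosomes, is named after its values were seen. It had 0.504, 0.297 and 0.564 CPM against 0.463, 0.152 and 0.0626 CPM (-0.95, SE 0.73), and the groups overlapped. With 1 library left out its difference ran from -2.03 to -0.54, on 2 to 27 fragments a library.

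Across the whole group, no collagen passed the test. Of 15354 genes tested with edgeR's quasi-likelihood test, 0 had an adjusted p under 0.05 (0% of genes), and the smallest adjusted p of a collagen was 0.999. At an unadjusted p under 0.05, 285 genes were lower in the mutants (1.86%) and 244 higher (1.59%), and of the 41 collagens tested 1 was lower (Col23a1) and 0 were higher. DESeq2, as an alternative, called 26 genes at an adjusted p under 0.05, 0.169% of those tested and none of them a collagen, and gave an unadjusted p under 0.05 for 6 of 41 collagens (14.6%) and 4.45% of all genes. All 3 mutants lay below all 3 controls in 3 collagens (Col23a1, Col18a1 and Col4a1), 7.32% of those tested against 4.82% of all genes. All 3 mutants lay above all 3 controls in 2 collagens (Col22a1 and Col28a1), 4.88% against 4.06% of all genes. With 3 libraries a group, an exact two-sided permutation test of a single value cannot go below 0.1.

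**Figure D2:**
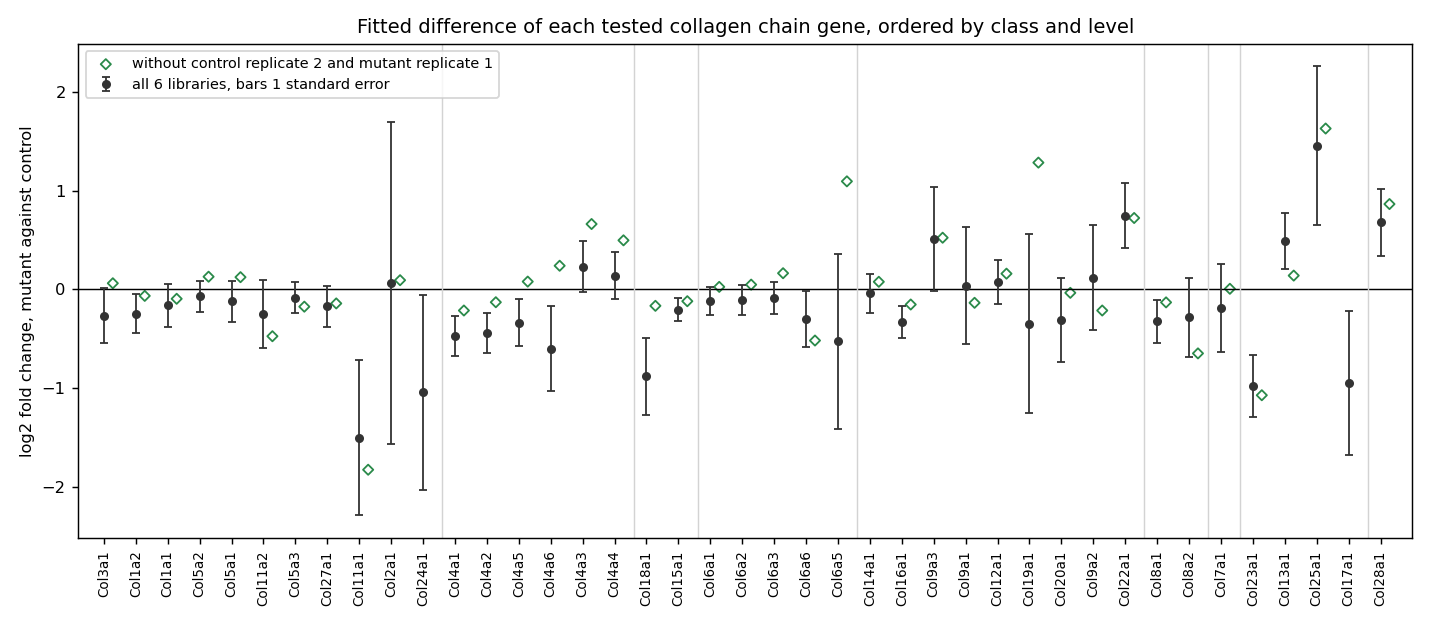
Fitted log2 difference between mutants and controls for each of the 41 collagen chain genes tested, as black points with bars of 1 SE from edgeR, ordered by class (grey lines) and level. Green diamonds are the differences of the 39 genes tested without control replicate 2 and mutant replicate 1, and while 30 of 41 black points lie below 0, 18 of 39 diamonds do.

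The fitted difference was below 0 in 30 of 41 collagens (73.2%) against 47.8% of all genes tested, with a median of -0.19 against 0.01 on the log2 scale. By class it was below 0 in 10 of 11 fibrillar genes, 4 of 6 basement membrane, 2 of 2 multiplexin, 5 of 5 beaded filament, 4 of 9 FACIT, 2 of 2 network and 2 of 4 transmembrane genes tested. This count moved with the libraries used. Control replicate 2 was the highest of the 6 libraries in 20 of 41 collagens, against 24.5% of all genes, and mutant replicate 1 was the lowest in 17 of 41, against 19.9% of all genes. Without control replicate 2 the count was 27 of 41, with a median of -0.04, and without mutant replicate 1 it was 26 of 40, with a median of -0.12. With both left out, which was added once the data had been seen, it was 18 of 39 (46.2%) against 50.8% of all genes, with a median of 0.03. Those 2 libraries were left out for being the highest control and the lowest mutant in many collagens, so that the count would drop follows from the choice and is no test of it.

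Smooth muscle markers followed the same library order at its ends. Their summed level was 8147, 14755 and 7302 CPM in the controls and 4039, 6809 and 7390 CPM in the mutants, highest in control replicate 2 and lowest in mutant replicate 1. Of the 10 markers 9 had a fitted difference below 0 (47.8% of all genes), 4 had all mutants below all controls (4.82% of all genes), and 2, Synpo2 and Smtn, were lower with an unadjusted p under 0.05 in edgeR (1.86% of all genes). None was at 0 in every library. Summed cardiac muscle markers ran the opposite way at both ends, with 36738, 13067 and 40061 CPM in the controls and 43769, 20094 and 29884 CPM in the mutants, lowest in control replicate 2 and highest in mutant replicate 1. The parts of smooth and cardiac muscle in the collagen values were not tested. Summed valve interstitial markers were 11376, 9170 and 10792 CPM in the controls and 10096, 12859 and 13103 CPM in the mutants, and the groups overlapped. Of the 12 markers 9 had a fitted difference above 0, and 1, Dpt, was higher with an unadjusted p under 0.05 in edgeR (1.59% of all genes).

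Of the 7 class sums, those of the fibrillar, basement membrane, multiplexin, beaded filament and FACIT classes were highest in control replicate 2. All collagens together reached 8236, 11955 and 9777 CPM in the controls and 6901, 8592 and 9047 CPM in the mutants, or 9990 ± 1869 against 8180 ± 1130 CPM (SD, n = 3 each), a log2 ratio of -0.29. Fibrillar chains reached 5462, 7657 and 6785 CPM in the controls and 4782, 5958 and 6265 CPM in the mutants (-0.23). Basement membrane chains reached 976, 1633 and 1186 CPM against 805, 987 and 1022 CPM (-0.43). These groups overlapped, as did those of the beaded filament (-0.11), FACIT (-0.11) and network (-0.32) sums. Multiplexins reached 653, 1364 and 664 CPM in the controls and 335, 597 and 580 CPM in the mutants (-0.83), and transmembrane chains 69.7, 72.8 and 86.2 CPM against 50.9, 60.3 and 27.9 CPM (-0.72). In these 2 classes all mutants lay below all controls, which follows from Col18a1 and Col23a1. Without control replicate 2 the multiplexin ratio was -0.39, the basement membrane ratio -0.21, the fibrillar ratio -0.11, the beaded filament ratio -0.03 and the ratio of all collagens -0.14. The FACIT ratio turned to 0.0083, while the network ratio was -0.41 and the transmembrane ratio -0.75. Other libraries moved these 2 classes more, the network ratio to -0.13 without control replicate 1 and -0.18 without mutant replicate 1, and the transmembrane ratio to -0.46 without mutant replicate 3.

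**Figure D3:**
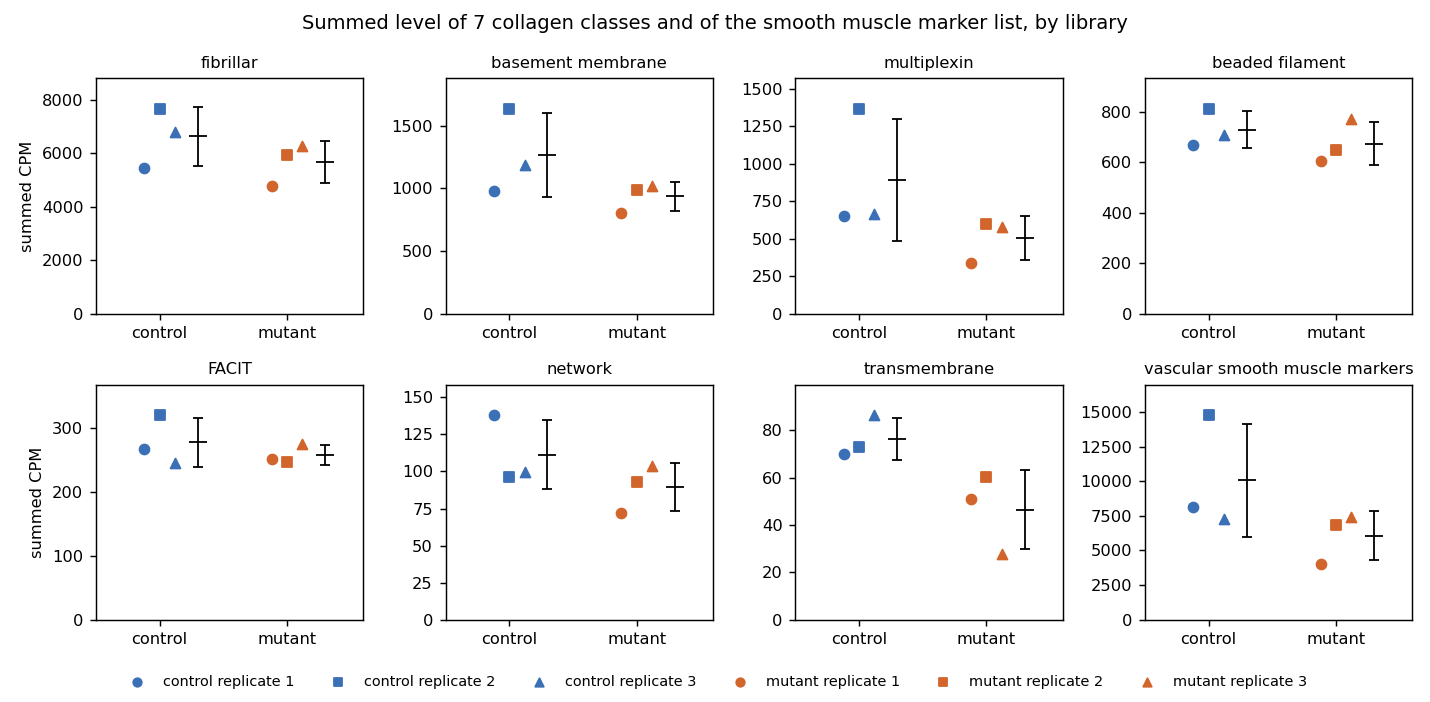
Summed level in CPM of 7 collagen classes and of the smooth muscle marker list in each library, with the mean and 1 SD (n = 3) to the right of each group and every axis starting at 0. Control replicate 2 is the highest library in the fibrillar, basement membrane, multiplexin, beaded filament, FACIT and smooth muscle panels, and in the multiplexin and transmembrane panels every mutant lies below every control.

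In 7 of 11 pairs of chains compared the coefficient of variation of the proportion between libraries was below that of either chain's level, though by almost nothing in 1 of the 7, most tightly for Col4a1 with Col4a2 and Col6a1 with Col6a2. The ratio of Col4a1 to Col4a2, in CPM per kb, was 2.08, 2.002 and 2.19 in the controls and 2.08, 2.11 and 1.94 in the mutants. Its coefficient of variation over 6 libraries was 4.14%, while the genes themselves varied by 24.9% and 25.7%. The ratio of Col6a1 to Col6a2 was 1.41, 1.35 and 1.39 in the controls and 1.36, 1.44 and 1.33 in the mutants, with a coefficient of variation of 3.05% against 10.6% and 12.5% for the genes. Col4a3 to Col4a4 lay between 1.45 and 1.83 (9.33% against 24.7% and 21.7%), and Col1a1 to Col1a2 between 0.699 and 0.936 (10.05% against 15.8% and 14.5%). The ratio was also steadier than both genes for Col9a1 to Col9a3 (28.7% against 54.4% and 53.6%) and for the X-linked pair Col4a5 to Col4a6 (21.5% against 27.99% and 54.4%), which ranged from 1.20, in control replicate 2, to 2.18. For Col5a1 to Col5a2 the ratio and the steadier gene were all but tied (12.06% against 18.8% and 12.07%). It was not steadier for Col8a1 to Col8a2 (44.6% against 21.7% and 43.6%), and for Col11a1 to Col11a2 it lay between the genes (65.3% against 95.4% and 34.4%). The ratio also lay between the genes for Col6a3 to Col6a1 (11.9% against 14.6% and 10.6%) and Col3a1 to Col1a1 (20.3% against 22.1% and 15.8%). Col3a1 to Col1a1 was 3.41 in control replicate 2 and 1.996 to 2.51 in the other 5 libraries. The groups overlapped in all 11 ratios computed. The size of a ratio depends on the length used, and with the union of all annotated exons Col1a1 to Col1a2 averaged 1.73 in place of 0.826, Col5a1 to Col5a2 1.05 in place of 0.733 and Col6a1 to Col6a2 2.31 in place of 1.38. Its spread between libraries does not depend on the length.

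**Figure D4:**
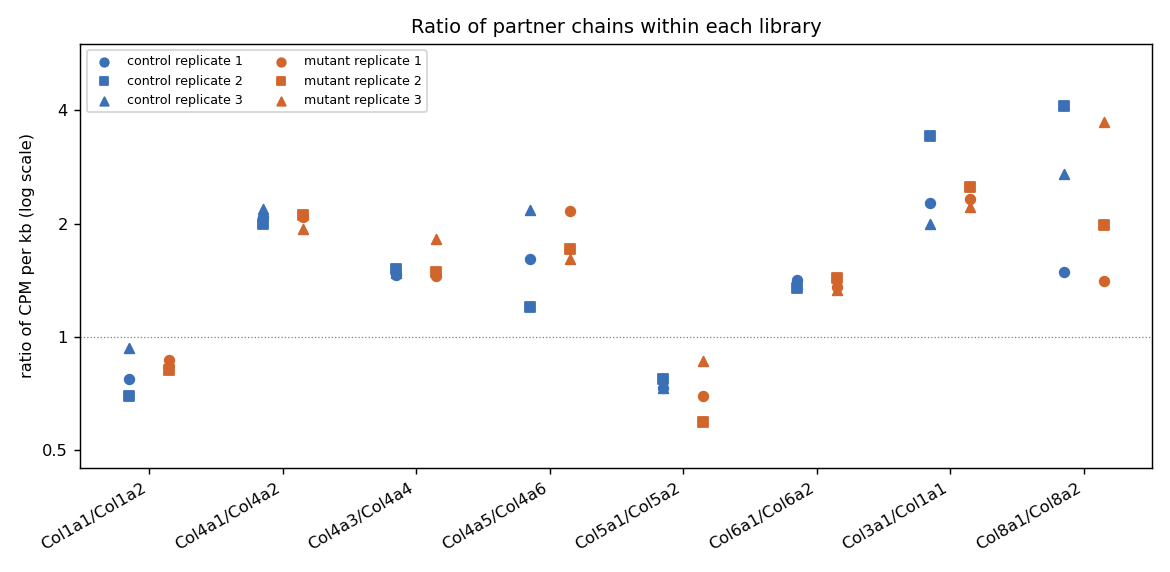
Ratio of 2 chains' levels, in CPM per kb of transcript on a log axis, in each of the 6 libraries for 8 of the pairs, with the dotted line at a ratio of 1. Controls (blue) and mutants (orange) overlap in every pair shown, and the points of Col4a1/Col4a2 (1.94 to 2.19) and Col6a1/Col6a2 (1.33 to 1.44) lie closest together.

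Genes that act on collagen were counted by the same fit, and none had an adjusted p under 0.05. Of all genes tested, 47.8% had a difference below 0. Of 12 genes for prolyl and lysyl hydroxylation, which stabilizes the helix, 7 had a difference below 0 and 5 above. Leprel1, a prolyl 3-hydroxylase, had 25.2 ± 1.22 CPM in the controls and 20.9 ± 1.81 CPM in the mutants (log2 difference -0.27, SE 0.11), and P4ha3, a prolyl 4-hydroxylase subunit, had 5.93 ± 1.24 against 3.76 ± 1.13 CPM (-0.65, SE 0.30). In both, 2 of the 12 genes, all mutants were below all controls, as in 4.82% of all genes. Of 12 genes for folding and export 9 were below 0, with Sec24d, of the transport vesicle coat, at 142 ± 24.0 against 119 ± 11.9 CPM (-0.25, SE 0.15) and Fkbp10, a collagen chaperone, at 112 ± 5.43 against 104 ± 16.8 CPM (-0.11, SE 0.13). Values here and below are means ± SD, n = 3 each.

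Of 7 genes for removal of the propeptides 5 were above 0, and in 1, Adamts14, all mutants were above all controls (4.06% of all genes). Pcolce2, an enhancer of the C-proteinase, was at 91.1 ± 22.3 against 122 ± 33.5 CPM (0.42, SE 0.25) and Bmp1, the C-proteinase, at 149 ± 10.02 against 174 ± 35.3 CPM (0.22, SE 0.16). Of 5 crosslinking enzymes 4 were below 0. Lox, lysyl oxidase, was at 32.03, 112 and 43.9 CPM in the controls and 17.4, 40.3 and 46.9 CPM in the mutants (-0.84, SE 0.54), again highest in control replicate 2 and lowest in mutant replicate 1. Loxl2 was at 26.7 ± 3.20 against 31.4 ± 11.04 CPM (0.24, SE 0.25).

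Of 9 collagen receptors 7 were below 0, and 1 was lower with an unadjusted p under 0.05, a call made for 1.86% of all genes. Ddr2, the receptor kinase for fibrillar collagen, had 126, 157 and 132 CPM in the controls and 104, 109 and 122.6 CPM in the mutants (log2 difference -0.30, SE 0.12, unadjusted p = 0.0411 and adjusted p = 0.999 in edgeR). Itga1, the integrin chain that binds type IV collagen, had 35.4, 53.0 and 33.7 CPM against 23.2, 31.7 and 32.8 CPM (-0.48, SE 0.22). In these 2 of the 9 receptors all mutants were below all controls, as in 4.82% of all genes. Of 10 genes of collagen cleavage and its inhibition 6 were above 0. Among them the inhibitor Timp1 was above 0, and the inhibitors Timp2 and Timp3 were below. Mmp13, a collagenase of cartilage and bone, had 4.05 ± 2.12 against 7.96 ± 3.49 CPM (0.98, SE 0.45) and Timp3, an inhibitor of metalloproteinases, 2155 ± 225 against 1874 ± 133 CPM (-0.20, SE 0.20).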

How the data were processed

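The authors prepared total RNA from aortic valves with a TruSeq kit and sequenced it on a HiSeq4000. Per the submitters' processing notes they used TopHat2 2.0.13, Bowtie2 2.2.1 and Cuffdiff 2.1.1 with mm10. The deposited values are estimated counts of fragments per gene, raw, and 1.66 to 1.87% of them per library were not whole, so they were rounded. None of these lay in a collagen gene. Counting by strand was not stated, so reads where genes overlap may be shared. For Col4a1 and Col4a2 the annotated overlap is 22 bases, against transcripts of 6615 and 6450 bases.

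A gene was tested if 3 or more libraries held at least 10 counts (15354 genes), in R 4.3.3 with edgeR 4.0.16 (TMM, quasi-likelihood F test, no covariates, Benjamini-Hochberg over all genes tested, threshold 0.05). Of the 43 collagens 41 passed, all but Col10a1 and Col6a4. Col21a1 had no row. The 3 mutants and 3 controls were grouped by GEO's labels. Lengths came from GENCODE M21 (GRCm38), matched by symbol for 89.8% of genes and for all collagens. DESeq2 1.42.0, limma 3.58.1 (voom with sample weights), other normalizations, filters, a replicate block and left-out libraries were alternatives. The scripts were tested on simulated data.

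Members and lists were chosen with earlier results of these data known. Named by rule were the 3 highest genes per length in each class, genes whose groups do not overlap, those with an unadjusted p under 0.05, Col2a1, Col10a1, and the 2 smallest p of each list of collagen-handling genes. Any other gene named was chosen after its values were seen. Class sums and ratios carry no test. The floor of 3 counts was 0.0538 to 0.0931 CPM and covers counting error only.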

Additional observations from a re-analysis of the deposited data

How the results depend on the processing

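No collagen had an adjusted p under 0.05 in any fit. Over all genes the count was 0 in every fit but DESeq2's, which called 26. An unadjusted p under 0.05 was given for 1 collagen and 529 genes in the reported fit, 6 and 683 by DESeq2, 5 and 814 with the replicate block, 3 and 625 without a filter, and 3 and 622 with limma-voom sample weights. Same-numbered libraries deviated together with correlations of 0.29, 0.08 and 0.03, and libraries of unlike number with -0.27 to 0.20. Without a reference value for unpaired libraries, these correlations cannot decide whether the numbers pair the libraries. The sign of 35 of 41 collagens was the same in every fit on all 6 libraries that tested them. With limma-voom weights the log2 difference was 0.12 for Col14a1, 0.46 for Col19a1, -0.43 for Col2a1, 0.0095 for Col6a3, 0.44 for Col6a5 and -0.26 for Col9a1. Without control replicate 2 and mutant replicate 1 together, the log2 ratio of summed levels was -0.030 for all collagens, -0.11 for basement membrane and -0.16 for multiplexin chains. The cause was not tested. Over all fits that left out 1 library, or these 2, the ratios ran from -0.41 to -0.030, -0.59 to -0.11 and -1.01 to -0.16. The upper ends came from leaving out these 2, picked as the highest control and the lowest mutant in many collagens. With 1 library left out the upper ends were -0.14, -0.21 and -0.39.

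In the same fits the log2 difference changed sign for the genes that follow. For Col3a1, Col4a5, Col6a1 and Col6a2 it did so only without control replicate 2 and mutant replicate 1 together. That pair was chosen from the collagen values, and with 1 library left out these genes stayed below 0. It ran from -0.42 to 0.063 for Col3a1, -0.36 to 0.12 for Col5a1, -0.14 to 0.13 for Col5a2, -0.22 to 0.046 for Col5a3, -0.54 to 0.068 for Col11a2 and -0.55 to 2.82 for Col2a1. It ran from -0.045 to 0.50 for Col4a4, -0.48 to 0.080 for Col4a5, -0.89 to 0.24 for Col4a6, -0.22 to 0.026 for Col6a1, -0.24 to 0.049 for Col6a2, -0.20 to 0.16 for Col6a3 and -1.02 to 1.09 for Col6a5. It ran from -0.060 to 0.25 for Col12a1, -0.22 to 0.15 for Col14a1, -1.31 to 1.28 for Col19a1, -0.55 to 0.60 for Col9a1, -0.25 to 0.61 for Col9a2, -0.064 to 0.84 for Col9a3, -0.47 to 0.082 for Col7a1 and -0.65 to 0.30 for Col8a2. It kept its sign for Col1a1 (-0.27 to -0.011), Col1a2 (-0.34 to -0.065), Col4a2 (-0.59 to -0.13), Col4a3 (0.036 to 0.66), Col8a1 (-0.56 to -0.12), Col11a1 (-2.005 to -0.71), Col13a1 (0.14 to 0.68), Col15a1 (-0.30 to -0.10), Col16a1 (-0.49 to -0.15) and Col25a1 (0.89 to 1.96). Depth limits Col2a1, Col10a1, Col24a1, Col6a4 and Col17a1 in particular, which had at most 2 fragments in their lowest library.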

Other observations

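Col26a1 has no row under that symbol, but an older symbol of it, Emid2, does. Emid2 was chosen after its values were seen and stands outside the 43 genes. It had 103, 15 and 96 fragments in the controls and 51, 80 and 8 in the mutants, or 1.92, 0.297 and 2.08 CPM against 0.984, 2.02 and 0.250 CPM. Both groups held a library near the bottom of the range, and the log2 difference of -0.39 had an SE of 0.89.

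Marker lists of cells other than smooth muscle and valve interstitial cells stood as follows by the sign of the fitted difference. Of 12 cardiac muscle markers 10 were above 0, of 12 endothelial markers 7, of 10 Schwann cell markers 6 and of 11 blood and immune markers 10. Of 10 chondrocyte markers 6 were below 0, and of 8 adipocyte markers 8. Of all genes tested, 47.8% were below 0. Of the blood and immune markers 4 (Igj, Cd68, C1qa and Cd3e) were higher with an unadjusted p under 0.05 in edgeR (1.59% of all genes), and in 4 (36.4%, against 4.06% of all genes) all mutants lay above all controls. None had an adjusted p under 0.05. Their summed level, 502 to 8069 CPM in the controls and 675 to 6700 CPM in the mutants, included Hba-a1, a hemoglobin chain listed at 0 to 7404 CPM. Summed endothelial markers, the cells that rest on the type IV sheet, ranged from 2936 to 4195 CPM in the controls and from 3327 to 4110 CPM in the mutants. Their part in the collagen values was not tested.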
